A study of Mus musculus with 45 samples.

Results

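The genes of the collagen and laminin families were followed through differentiation of male mouse embryonic stem cells. Members were all genes whose symbol is Col or Lam with the chain designation (Col, a number, a and a number, or Lam, a letter from a to c and a number). The rule found 55 genes among the 35372 in the count tables, of which 44 encode collagen chains and 11 encode laminin chains. In 45 libraries, 49 of the 55 reached 1 CPM (reads of the gene scaled to 1000000 reads of the library) in at least 1 library, which was 39 collagens and 10 laminins, and these 49 are described here. The other 6 stayed below that level throughout. They were Col15a1, which reached 0.860 CPM, Lamc3 (0.586 CPM), Col4a3 (0.483 CPM), Col4a4, Col28a1 and Col10a1, while Lama2 (1.41 CPM) and Col19a1 (1.58 CPM) were the lowest of those counted in.

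The cells were wild-type E14tg2a ESCs of 129/Ola background, a single line, kept either in 2iL (inhibitors of Gsk3 and Mek with LIF) or in SL (serum with LIF). From each medium they were differentiated along 3 courses, which the labels call EB (suspension aggregates in serum), EpiSC (adherent cells given Fgf2 and ActivinA without serum) and Neural (adherent cells in the same serum-free base with neither factor). Total RNA depleted of ribosomal RNA was sequenced by strand on days 0, 1, 1.5, 2, 2.5, 3, 5 and 7, with 1 library for each medium, course and day, except that a single SL library serves as day 0 of all 3 courses. Day 5 of the EpiSC course from 2iL was not analysed here.

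Collagens are triple helices of 3 alpha chains. Collagen IV forms the network of basement membranes, the sheets on which epithelia and endothelia rest, and fibrillar collagens form the cables of connective tissue, on whose surface the FACIT collagens sit. Laminins are cross-shaped trimers of an alpha, a beta and a gamma chain that polymerize on the cell surface and start basement membrane assembly. In the early mouse embryo the laminin of Lama1, Lamb1 and Lamc1 and collagen IV underlie the epiblast, and the parietal endoderm of the yolk sac is known for secreting both in large amounts.

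Each library held between 13093226 and 39804240 reads on genes, and the 8 libraries of the EB course from 2iL were the deepest group (median 34490700 reads against 17297400 in the other 37). Within a medium and day no library was a copy of another, since the counts of the 43 such pairs varied at least 18.6 times more than counting error. Pairs across days or media were not compared in this way. Neural markers (8 genes, among them Sox1, Pax6 and Tubb3) summed to between 429 and 695 CPM on days 5 and 7 of the Neural course, to between 104 and 270.1 CPM in EB and to between 186 and 539.5 CPM in EpiSC. Markers of extraembryonic endoderm (18 genes, among them Gata4, Gata6, Sox17, Dab2 and Cubn) summed to between 2272 and 4705 CPM in the late Neural libraries, to between 742 and 2651 CPM in EB and to between 982 and 1436 CPM in EpiSC. Differences were tested with edgeR's quasi-likelihood test, with p-values adjusted by Benjamini-Hochberg over all genes tested. The courses of a day served as replicates, except that media and days did so in the comparisons of courses. Since the courses are different treatments, the spread after day 0 also holds differences between them in their change over days. Nothing says that the libraries came from separate cultures. The p-values therefore measure only the spread between these libraries, which may in part be technical. In bulk RNA, fewer cells of a type and less RNA per cell cannot be told apart.

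Promoter windows of 300 bases around the RefSeq start on GRCm38.p6, read 5′ to 3′ along each gene, are shown for Col4a1, Col4a2 and Lamb1. These 3 were chosen from the 5 genes in which the excess of Neural over EB in summed CPM lay, as given below. The RefSeq promoter table held 40 of the 55 members. Col4a1 (ENSMUSG00000031502, chromosome 8, 11198423 to 11312826, negative strand) and Col4a2 (ENSMUSG00000031503, 11312805 to 11449287, positive strand) run away from each other from starts 21 bases apart, and their windows, chr8:11312777-11313076 and chr8:11312555-11312854, share 78 bases. Lamb1 (ENSMUSG00000002900, chromosome 12, 31265234 to 31329644, positive strand) stands on its own, with the window chr12:31265043-31265342. Capitals mark the letters CCAAT and GGGCGG (the GC box) on either strand.
Col4a1: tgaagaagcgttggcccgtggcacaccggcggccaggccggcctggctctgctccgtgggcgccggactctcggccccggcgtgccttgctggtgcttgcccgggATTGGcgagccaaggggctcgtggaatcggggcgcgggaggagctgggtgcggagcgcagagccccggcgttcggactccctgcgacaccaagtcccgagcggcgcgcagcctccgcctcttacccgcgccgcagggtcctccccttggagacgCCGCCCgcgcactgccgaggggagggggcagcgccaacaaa
Col4a2: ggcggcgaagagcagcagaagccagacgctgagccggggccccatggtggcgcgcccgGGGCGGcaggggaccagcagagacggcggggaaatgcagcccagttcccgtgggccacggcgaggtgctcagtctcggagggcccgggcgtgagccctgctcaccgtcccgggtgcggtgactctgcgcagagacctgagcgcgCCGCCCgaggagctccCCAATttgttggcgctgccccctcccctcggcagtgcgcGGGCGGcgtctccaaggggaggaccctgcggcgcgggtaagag
Lamb1: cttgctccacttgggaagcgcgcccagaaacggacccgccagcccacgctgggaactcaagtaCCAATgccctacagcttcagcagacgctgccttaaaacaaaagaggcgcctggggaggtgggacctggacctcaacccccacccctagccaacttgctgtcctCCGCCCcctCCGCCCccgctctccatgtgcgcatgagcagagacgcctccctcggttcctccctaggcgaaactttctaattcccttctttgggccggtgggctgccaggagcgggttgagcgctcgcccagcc

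The letters CCAAT occur 1 time in each of the 3 windows, and GGGCGG occurs 1 time in that of Col4a1, 3 times in that of Col4a2 and 2 times in that of Lamb1. Of all 32851 promoter windows of this length, 37.4% hold CCAAT and 35.7% hold GGGCGG. Within a window the marked letters do not overlap each other. The GGGCGG of the Col4a1 window lies in the bases shared with Col4a2 and is the same site as 1 of the 3 counted there. A GATA motif (GATAA or GATAG preceded by A or T) occurs in 29.8% of promoters on either strand and TATAAA in 13.6%, and neither is in any of the 3 windows. These matches describe the letters of the windows only.

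Col4a1 and Col4a2, the chains of the collagen IV found in nearly all basement membranes, were highest late in the Neural course. From 2iL, Col4a1 in the Neural course was at 9.90, 22.3, 28.7, 57.0, 118, 255, 2009 and 7749 CPM on days 0, 1, 1.5, 2, 2.5, 3, 5 and 7. From SL, Col4a1 in the Neural course was at 366, 390.2, 440.3, 747, 1244, 5308 and 9168 CPM from day 1 on. In the EB course Col4a1 reached 441 CPM on day 7 from 2iL, after 46.2, 58.7, 45.2, 76.8, 96.2, 101 and 130.4 CPM on the days before, and from SL it lay between 301 and 852 CPM. The EpiSC course ended at 230.5 CPM from 2iL and at 329 CPM from SL for Col4a1. Thus the 4 late Neural libraries (2009 to 9168 CPM) did not overlap with the 7 late libraries of the other courses (130.4 to 852 CPM).

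**Figure D1:**
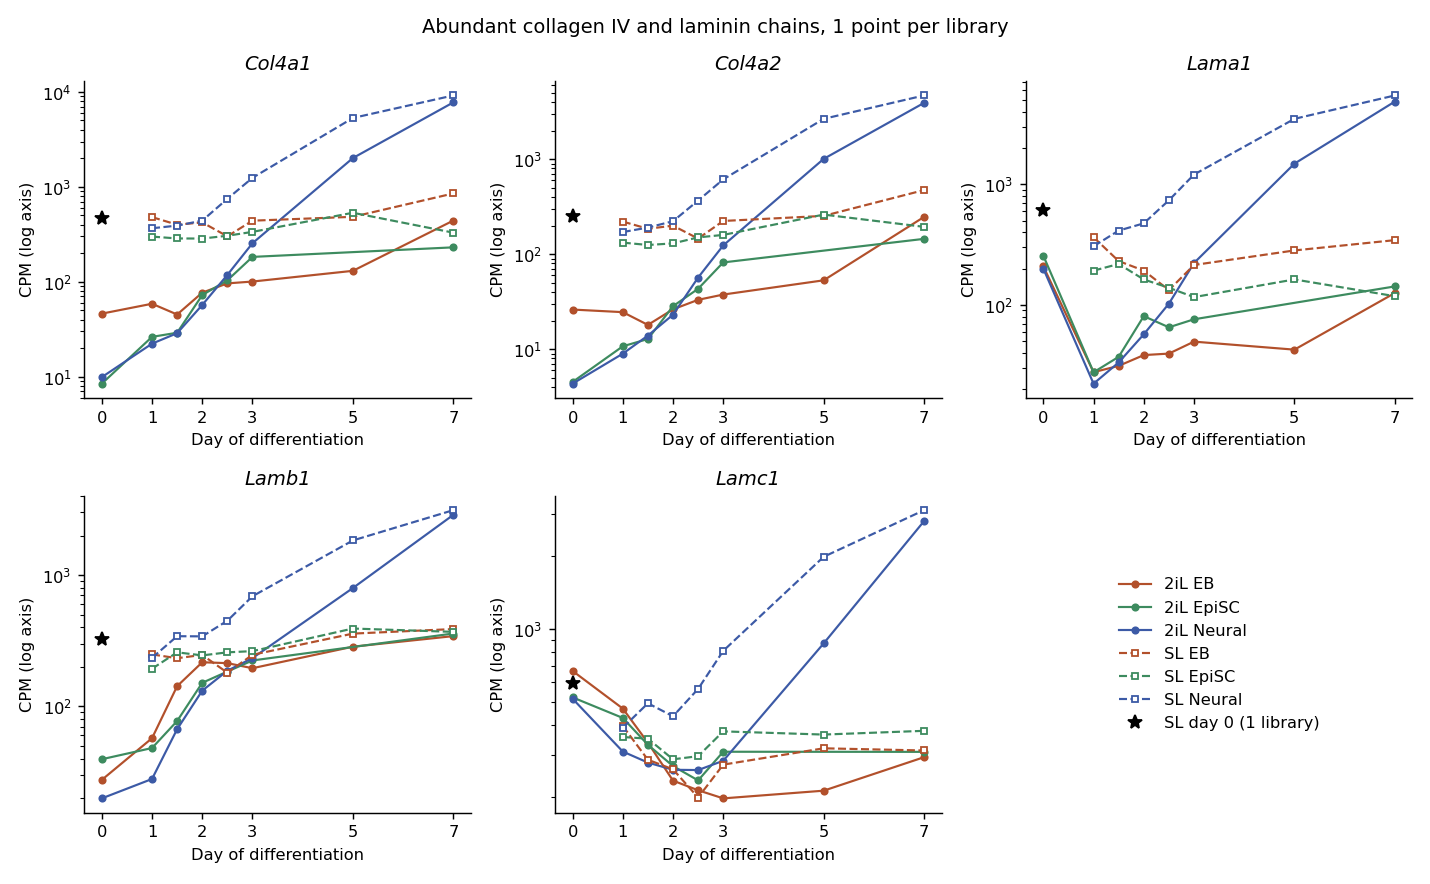
CPM of Col4a1, Col4a2, Lama1, Lamb1 and Lamc1 on a log axis against day of differentiation, with 1 point per library, filled circles and solid lines for 2iL, open squares and dashed lines for SL, colours for courses and a star for the SL day 0 library. All 5 genes climb in the Neural course to between 2806 and 9168 CPM on day 7, while EB and EpiSC end between 118 and 852 CPM.

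Col4a2, whose chain joins with the Col4a1 chain in one trimer, followed the same path. In the Neural course from 2iL, Col4a2 was at 4.34, 8.98, 13.9, 23.1, 56.9, 124, 1009 and 3922 CPM, and from SL at 171, 191, 223, 367, 614, 2663 and 4694 CPM from day 1 on. The other late libraries held Col4a2 at 53.2 to 473 CPM. Per kilobase of exon, Col4a1 exceeded Col4a2 in each of the 45 libraries, by between 1.41 times and 2.59 times with a median of 1.84 times, while Col4a1 itself ranged over 1085-fold. The X-linked pair Col4a5 and Col4a6, which also run away from each other, from starts 1343 bases apart, kept no such narrow ratio. In the 18 libraries with at least 10 reads of each, Col4a5 exceeded Col4a6 by between 1.79 times and 9.10 times per kilobase. Col4a6 had 2095 reads over all libraries against 309040 of Col4a2, so counting error widens the range of this pair. A link of the ratios to the distance between starts was not tested.

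Col4a5 and Col4a6, chains of the collagen IV of more specialized basement membranes, were higher in EB and EpiSC than in Neural on day 7 from both media. Col4a5 was at 28.2 CPM in EB, 37.8 CPM in EpiSC and 9.47 CPM in Neural on day 7 from 2iL, and at 34.5, 43.8 and 12.7 CPM from SL. Col4a6 was at 17.2, 8.18 and 1.44 CPM from 2iL and at 22.8, 12.7 and 3.02 CPM from SL in the same order. On day 5 Col4a5 was lower in EB than in Neural, at 7.29 and 10.7 CPM from 2iL and at 5.66 and 13.4 CPM from SL. Col4a6 on day 5 was higher in EB from 2iL (3.57 CPM, against 1.95 CPM in Neural) and lower in EB from SL (3.32 against 4.46 CPM). Both were among the members with the largest rises from the start of either medium. Over days 5 and 7 together, EB did not differ past the threshold from Neural in Col4a5 (log2 fold change 0.10, SE 0.51) or Col4a6 (1.41, SE 0.69).

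Lama1, Lamb1 and Lamc1, the 3 chains of the early embryonic laminin, joined collagen IV in the Neural course. Lama1 (ENSMUSG00000032796, chromosome 17, 67697259 to 67822647) in the Neural course from 2iL was at 199.7, 22.2, 33.3, 57.0, 102, 222, 1483 and 4853 CPM. In the Neural course from SL, Lama1 was at 306, 413, 474, 737, 1204, 3489 and 5453 CPM from day 1 on. The other 2 courses ended at 125 and 142 CPM from 2iL and at 344 and 118 CPM from SL, so that Lama1 differed between courses by up to 46.2 times on day 7.

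Lamb1 in the Neural course was at 19.9, 27.9, 66.9, 132, 187, 233, 797 and 2878 CPM from 2iL and at 234, 342, 341, 449, 690.0, 1837 and 3126 CPM from SL. The late libraries of EB and EpiSC all lay between 285 and 392 CPM for Lamb1. Lamc1, the gamma chain shared by most laminins, was already abundant at day 0. In the Neural course from 2iL, Lamc1 fell from 514 CPM to 260.4 CPM on day 2 and then reached 871 and 2806 CPM on days 5 and 7. In EB from 2iL it was at 669.8, 467, 337, 235, 214, 198, 213 and 294 CPM, without such a return.

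The members together took between 0.0971% and 2.64% of all reads of a library. On day 7 of the Neural course they summed to 23050 CPM from 2iL and 26446 CPM from SL, of which Col4a1, Col4a2, Lama1, Lamb1 and Lamc1 made up 96.3% and 96.6%. On day 7 of the EB course the sums were 2685 and 3532 CPM. The ratio of Neural to EB was 8.58 from 2iL and 7.49 from SL with all members, and 0.682 and 0.766 without these 5 genes. The excess of the Neural course in summed CPM thus lay in these 5. This describes the sum only, since the 5 are abundant genes of these same libraries. Of the less abundant members, some were also higher in Neural than in EB and others lower, as given below.

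The alpha chain in use changed with medium, day and course. Per kilobase of exon, Lama1 made up between 46.1% and 57.7% of the alpha chain signal in the 3 day 0 libraries in 2iL and fell to between 12.8% and 14.6% on day 1. Most of the rest was Lama5, the alpha chain of most later epithelial basement membranes, at between 77.1% and 83.3% on day 1. By day 7, Lama1 made up 97.2% of the alpha chain signal in the Neural course from 2iL, 24.9% in EB and 33.2% in EpiSC. From SL, the share of Lama1 was 68.8% at day 0 and 96.2% in Neural, 50.7% in EB and 22.2% in EpiSC on day 7.

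Lama5 itself ranged less than Lama1. It lay between 107 and 559 CPM in all 45 libraries, with its lowest value on day 5 of the Neural course and its highest on day 5 of the EB course, both from 2iL. The late libraries held Lama5 at 388 to 559 CPM in EB, 322 to 476 CPM in EpiSC and 107 to 249 CPM in Neural, so that Neural did not overlap with the others.

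The beta chain changed over in the first days out of 2iL. In the 3 day 0 libraries in 2iL, Lamb2, the beta chain known from the neuromuscular junction and the kidney filter, made up between 71.9% and 82% of the beta chain signal per kilobase, and Lamb1 between 17.8% and 28.0%. On day 1 the share of Lamb1 was between 53.7% and 68.9%, and on day 2 between 80.0% and 91.6%. In SL, Lamb1 held 84.1% at day 0 and between 80.1% and 94.5% in all 21 later libraries. Lamb2 in 2iL fell from 56.9, 62.3 and 56.3 CPM to 15.5, 16.6 and 14.7 CPM within the first day in EB, EpiSC and Neural, and the groups did not overlap. By day 7 Lamb2 was back at 67.2, 35.6 and 94.9 CPM.

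**Figure D2:**
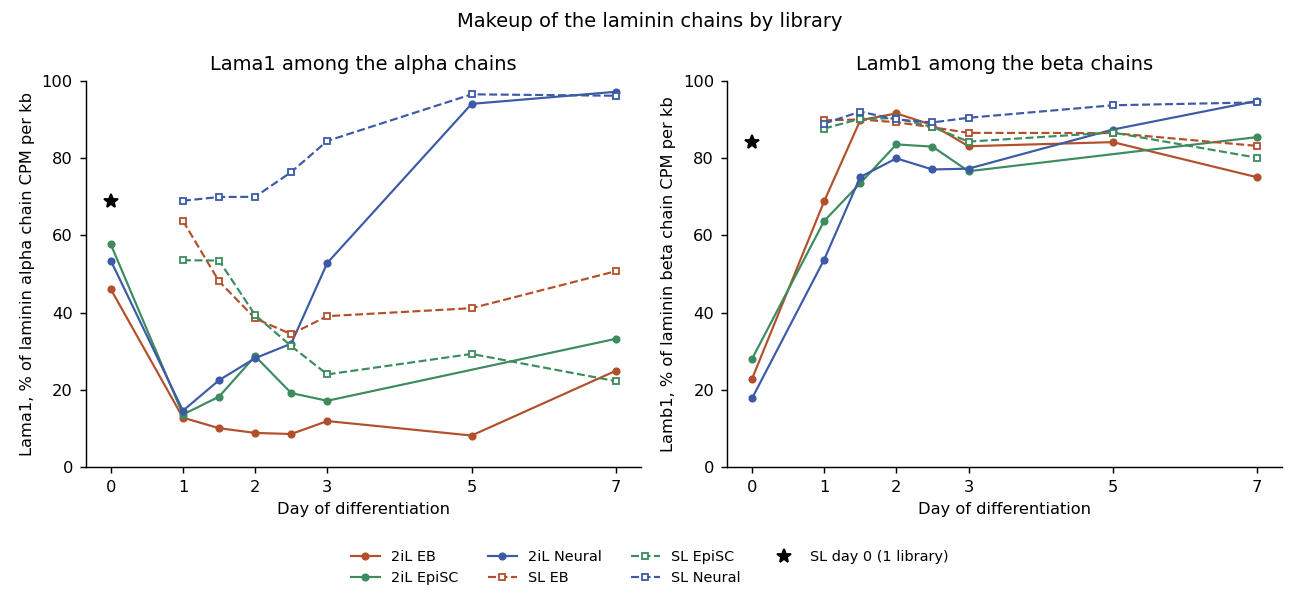
Share of Lama1 among the laminin alpha chains (left) and of Lamb1 among the beta chains (right), in % of CPM per kilobase of exon, against day, with 1 point per library and symbols as in the plot of collagen IV and laminin levels. Lama1 falls in every course from 2iL on day 1 and ends above 90% in Neural alone (97.2% and 96.2%), while Lamb1 rises from between 17.8% and 28.0% in 2iL at day 0 to between 75.1% and 94.9% on day 7.

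Lama3, an alpha chain of epithelial laminins, was highest in the first days in most time courses. Lama3 in the EpiSC course from 2iL was at 8.78, 12.8, 14, 8.87, 4.86, 2.64 and 2.69 CPM on the days analysed, and by day 7 it was between 0.692 and 2.73 CPM in all 6 time courses. Lamb3, a beta chain that pairs with it, reached at most 6.14 CPM in any library. Lama4, the alpha chain of blood vessel walls, reached 27 CPM on day 7 of the EB course from 2iL and at most 11.3 CPM elsewhere. Endothelial markers (7 genes, among them Pecam1, Cdh5 and Kdr) summed to between 12.9 and 170.4 CPM in the late EB libraries, to between 11.1 and 23.3 CPM in EpiSC and to between 18.8 and 41.2 CPM in Neural, and their part in the level of Lama4 was not tested.

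The media differed at day 0 in chains of several classes, among them collagen IV and laminin chains. Col4a1 was at 46.2, 8.45 and 9.90 CPM in the 3 libraries in 2iL (21.5 ± 21.4 CPM, SD, n = 3) and at 475 CPM in the SL library. The 2iL library of the EB course stood apart here, with Col4a2 at 26.2 CPM against 4.52 and 4.34 CPM in the other 2, but it stayed far below the 249.9 CPM in SL. The log2 fold change of 2iL over SL was -4.38 for Col4a1 (SE 0.66, adjusted p = 0.0016, edgeR) and -4.31 for Col4a2 (SE 0.70, adjusted p = 0.0022), both lower in 2iL. Without the 2iL library of the EB course the value for Col4a1 was -5.60. Lamb1, at 27.5, 39.5 and 19.9 CPM in 2iL and 326 CPM in SL, differed by -3.45 (SE 0.25, adjusted p = 4.8e-05), and Lama1 by -1.41 (SE 0.17, adjusted p = 0.00051).

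Of the 34 members that passed the filter on low counts at day 0, 15 were lower in 2iL and 2 were higher, against 17.3% and 13.5% of all 14948 genes tested, and the median over the 34 was -1.47 against 0.01 over all genes. By class, 2 of 2 collagen IV chains, 2 of 4 laminin alpha chains and 2 of 3 beta chains tested were lower, as were 3 of 6 FACIT collagens and 2 of 4 network and beaded filament collagens, and 1 of 8 fibrillar collagens. Among the lower ones were Lamb3 (-5.06, SE 0.53, adjusted p = 0.00025), Col6a4 (-4.99, SE 0.64, adjusted p = 0.00071) and Col5a3 (-4.29, SE 0.39, adjusted p = 0.00013). Col6a2, called lower in 2iL, had 2 reads in all in 2iL and 40 in SL, a ratio of 76.9 with a counting interval of 19.9 to 657. The 2 higher were Col9a2, a cartilage collagen, at 13.2, 13.0 and 17.6 CPM against 3.57 CPM (2.10, SE 0.33, adjusted p = 0.002), and Lamb2 at 0.88 (SE 0.17, adjusted p = 0.0045). Lamc1 differed by -0.01 (SE 0.21) and Lama5 by -0.45 (SE 0.19), and neither was called. With the spread estimated over all 45 libraries, the calls for Lama1 and Lamb2 were lost (adjusted p = 0.62 and 0.31). The SL group is 1 library, so the spread comes from 2iL alone.

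Markers of extraembryonic endoderm also differed between the media at day 0. They summed to 41.5, 46.5 and 59.6 CPM in 2iL and to 817 CPM in SL at day 0, and 12 of the 15 of them tested were called lower in 2iL. The highest of the 3 sums in 2iL was in the library of the EB course. In EB from SL on day 2 the markers summed to 4034 CPM and the collagen IV chains to 623 CPM, against 817 and 726 CPM at day 0. On day 1 from 2iL the markers summed to 415, 400 and 356 CPM in EB, EpiSC and Neural. The collagen IV chains then summed to 83.3, 37.2 and 31.5 CPM, against 72.6, 13.1 and 14.3 CPM at day 0. Lama1 was lower on that day than at day 0. The part of such cells in the differences of collagen IV and laminin was not tested.

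The difference between the media outlasted the change of medium. Over days 1 to 3, Col4a1 lay between 22.3 and 255 CPM (median 72.4 CPM) in the 15 libraries from 2iL and between 285 and 1244 CPM (median 390.2 CPM) in the 15 from SL. The corresponding log2 difference was -2.58 (SE 0.22, adjusted p = 1.3e-09, edgeR) for Col4a1, -2.75 (SE 0.23, adjusted p = 4.8e-10) for Col4a2, -2.45 (SE 0.27, adjusted p = 5.4e-08) for Lama1 and -1.16 (SE 0.20, adjusted p = 2.8e-05) for Lamb1. Of the 36 members tested, 17 were lower from 2iL and 1, Col18a1, was higher (0.44, SE 0.12, adjusted p = 0.0043), against 24.8% and 25.8% of all genes. Of the other called members, Col23a1 differed by -2.02 (SE 0.30) and Col6a2, a beaded filament chain, by -1.80 (SE 0.27). Lama5 (-0.04, SE 0.08), Lamb2 (-0.05, SE 0.10) and Col5a1 (0.00, SE 0.12) were not called. These counts take successive days of a time course as separate libraries. With the days summed per time course, 2 of 49 members tested were higher (Col18a1 and Col6a5) and 7 lower from 2iL, against 7.31% and 6.06% of all genes. Col4a1, Col4a2, Lama1, Lamb1 and Col6a2 were still called there, whereas Col23a1 was not (adjusted p = 0.069, edgeR). Markers of extraembryonic endoderm summed to between 356 and 1233 CPM from 2iL and to between 1507 and 4034 CPM from SL on these days, with 16 of 17 called lower from 2iL and Afp, Apoa1, Thbd and Ttr at 0 in at least 1 library from 2iL, and their part was not tested.

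On the first day out of 2iL, 4 of 48 members tested rose and 3 fell, against 14.6% and 14% of all 16306 genes. How many were called depended on the libraries in the fit: with days 0 and 1 alone, 8 of 31 members tested rose and 9 fell, against 19.5% and 20.9% of 14068 genes. The 17 included Col4a1 (0.98, adjusted p = 0.013, edgeR), Lamb1 (0.59, adjusted p = 0.028) and Lamc1 (-0.54, adjusted p = 0.0062). Col8a2, a short-chain network collagen of the cornea, rose from 0.0892, 0.0665 and 0.0934 CPM to 3.41, 2.5 and 1.35 CPM in EB, EpiSC and Neural (log2 fold change 4.74, SE 1.06, adjusted p = 0.0033, edgeR). Its day 0 values are each 3 reads or fewer, so the size of this rise is not well measured. Col18a1, the basement membrane collagen from which endostatin is cut, rose from 143, 150.4 and 174 CPM to 606, 485 and 334 CPM (1.58, SE 0.30, adjusted p = 0.00089). Col2a1, the main cartilage collagen, rose by 2.16 (SE 0.77, adjusted p = 0.044) and Col5a3 by 2.09 (SE 0.50, adjusted p = 0.0053).

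The 3 that fell on day 1 were Lama1, Lamb2 and Col1a1. Lama1 fell in each course, from 208, 256 and 199.7 CPM to 27.7, 27.6 and 22.2 CPM (log2 fold change -3.07, SE 1.01, adjusted p = 0.031, edgeR), and the groups did not overlap. Lamb2 changed by -1.91 (SE 0.31, adjusted p = 0.0003) and Col1a1 by -1.99 (SE 0.64, adjusted p = 0.028). The calls for Lama1, Col1a1 and Col2a1 were lost with the course left out of the model (adjusted p = 0.077, 0.088 and 0.072). Without the EpiSC course 2 members were called, Col8a2 and Lamb2, and without EB the call for Lama1 was lost (adjusted p = 0.053).

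By days 5 and 7 most members tested had risen from either medium. From 2iL, 33 of the 48 members tested were higher and 4 were lower than at day 0, against 33.8% and 30.9% of all genes, with a median log2 fold change of 2.25 against 0.03. From SL, 29 of 46 were higher and 9 lower than on day 1, against 33.9% and 31.0%, with a median of 1.65 against 0.04. Of the 11 fibrillar collagens, 10 rose from each medium, and Col5a3 fell from SL (-1.36, SE 0.41, adjusted p = 0.0082, edgeR). The 4 collagen IV chains tested of 6 all rose, with medians of 6.22 from 2iL and 3.27 from SL. Network and beaded filament collagens were split: 4 of 8 tested rose from 2iL, while from SL 3 of 7 rose and 4 fell.

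The largest fitted changes were in genes near 0 at the start. Col24a1 had no reads at day 0 in 2iL and 179 on days 5 and 7, which is at least 31.9-fold higher against a floor of 3 counts over the day 0 group, and at least 17.7-fold higher without the day 7 library of EB. Col25a1 went from 1 read to 646 reads, a ratio of 345 with a counting interval of 61.8 to 13662. The day 7 library of EpiSC held 452 of the 646, and without it the ratio for Col25a1 was 121. Col4a6 went from 2 to 1001 reads (268, interval 73.9 to 2212), of which the day 7 library of EB held 645, and without it the ratio was 133. Col3a1, Col12a1 and Col4a5 rose by log2 fold changes of 6.98 (SE 1.42), 6.68 (SE 1.34) and 6.75 (SE 0.67) from 2iL, with adjusted p of 0.00046, 0.0004 and 2.9e-07 (edgeR). These intervals cover counting error only.

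Among the chains of common trimers, Col1a1 rose by 3.5 (SE 0.51, adjusted p = 1.9e-05, edgeR) and Col1a2 by 6.05 (SE 1.03, adjusted p = 8.9e-05) from 2iL, and by 4.23 (SE 0.66, adjusted p = 4.5e-05) and 5.30 (SE 0.75, adjusted p = 1.9e-05) from SL. Col6a1 rose by 5.99 (SE 0.88, adjusted p = 2e-05) and 3.66 (SE 0.57, adjusted p = 4.1e-05). Col4a1 rose by 5.68 (SE 1.25, adjusted p = 0.00086) from 2iL and by 1.83 (SE 0.68, adjusted p = 0.028) from SL, and the latter call was lost without the Neural course (0.43, adjusted p = 0.18) and without EpiSC (2.40, adjusted p = 0.051). Lamb1 rose by 4.55 (SE 0.72, adjusted p = 4.4e-05) and 1.63 (SE 0.44, adjusted p = 0.0044). Lama1 (1.18, SE 0.98) and Lamc1 (0.07, SE 0.56) were not called from 2iL, and without the Neural course they were lower than at day 0, by -1.61 (adjusted p = 0.00036) and -1.33 (adjusted p = 0.00037).

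Members that fell by days 5 and 7 were few and at low levels. From 2iL these included Lama3 (log2 fold change -3.43, SE 0.49, adjusted p = 1.6e-05, edgeR), Col9a2 (-2.06, SE 0.46, adjusted p = 0.00093) and Col17a1, a collagen of epithelial anchoring junctions (-1.68, SE 0.61, adjusted p = 0.024). The call for Col17a1 was lost without EB (-0.85) or EpiSC (-1.60), and that for Col9a2 without Neural (-1.64). From SL, the largest fitted falls were in the beaded filament chains Col6a6 (-5.81, SE 0.45, adjusted p = 1.4e-07), Col6a5 (-3.01, SE 0.50) and Col6a4 (-2.94, SE 0.37), followed by Col13a1 (-2.71, SE 0.50), Lama3 (-2.42, SE 0.41) and Col17a1 (-2.41, SE 0.29). Col6a6 was at 0 CPM on day 5 from SL and at 0.0992, 0.0525 and 0.147 CPM on day 7 in EB, EpiSC and Neural. All of these are below 3 reads, so the size of its fall is not well measured.

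The change from day 1 to days 5 and 7 was compared between the media by an interaction term. Of 48 members tested, 1 (Col6a2, by a log2 value of 5.47, SE 0.90, adjusted p = 0.00042, edgeR) changed more from 2iL and 1 changed less, against 2.64% and 2.29% of all 16467 genes. For Col4a1, Col4a2 and Lama1 the differences of 2.54 (SE 1.07, adjusted p = 0.18, edgeR), 2.64 (SE 1.05, adjusted p = 0.15) and 2.70 (SE 1.13, adjusted p = 0.18) were not called.

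The courses were compared on days 5 and 7, over 11 libraries from both media. These tests take both days of a time course as separate libraries. Alternatives were run for the largest called changes and the partner chains. With both days summed per time course, 49 of these tests kept their outcome, 6 lost the call and 3 gained it. On day 7 alone, 45 kept it, 12 lost the call and 1 changed sign. Col4a1, Col4a2 and the 3 chains of the early embryonic laminin were lower in EB and in EpiSC than in Neural. The comparisons with Neural share its 4 libraries. In each of them 2 of 4 collagen IV chains, 1 of 5 laminin alpha chains, 2 of 3 beta chains and 1 of 2 gamma chains tested were lower than in Neural, and 1 alpha chain was higher in EB and 2 were higher in EpiSC. Lama1 was lower in EB than in Neural by a log2 fold change of -4.56 (SE 0.48, adjusted p = 0.00083, edgeR) and lower in EpiSC than in Neural by -4.98 (SE 0.56, adjusted p = 0.0018). For Col4a1 these values were -3.88 (SE 0.44, adjusted p = 0.00093) and -4.28 (SE 0.51, adjusted p = 0.0022), and for Col4a2 -3.83 (SE 0.43) and -4.16 (SE 0.50). Lamc1 differed by -2.96 (SE 0.27) and -2.80 (SE 0.30), and Lamb1 by -2.65 (SE 0.29) and -2.65 (SE 0.33). Lamb2 was also lower than in Neural, by -1.12 (SE 0.18) in EB and -1.33 (SE 0.20) in EpiSC, while Lama5 was higher by 1.43 (SE 0.25) and 1.2 (SE 0.26). On day 7 alone the calls for Lama5 and Lamb2 were lost, and with SL left out no member was called in any of the 3 comparisons of courses, though 20, 13 and 15 members had an unadjusted p under 0.05 for EB with Neural, EB with EpiSC and EpiSC with Neural. With 2iL left out, 6, 0 and 11 members were called, and 21 had an unadjusted p under 0.05 for EB with EpiSC.

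In all, 5 members were higher and 15 lower in EB than in Neural among 43 tested, against 15.6% and 17.9% of all 15087 genes. Between EpiSC and Neural, 11 were higher and 7 lower in EpiSC, against 10.3% and 11.1%. Between EB and EpiSC, no member was higher in EB by edgeR and 6 were lower, against 2.52% and 3.61%. At an unadjusted p under 0.05 the last comparison had 3 higher and 19 lower, and DESeq2's Wald test called 2 higher and 15 lower.

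**Figure D3:**
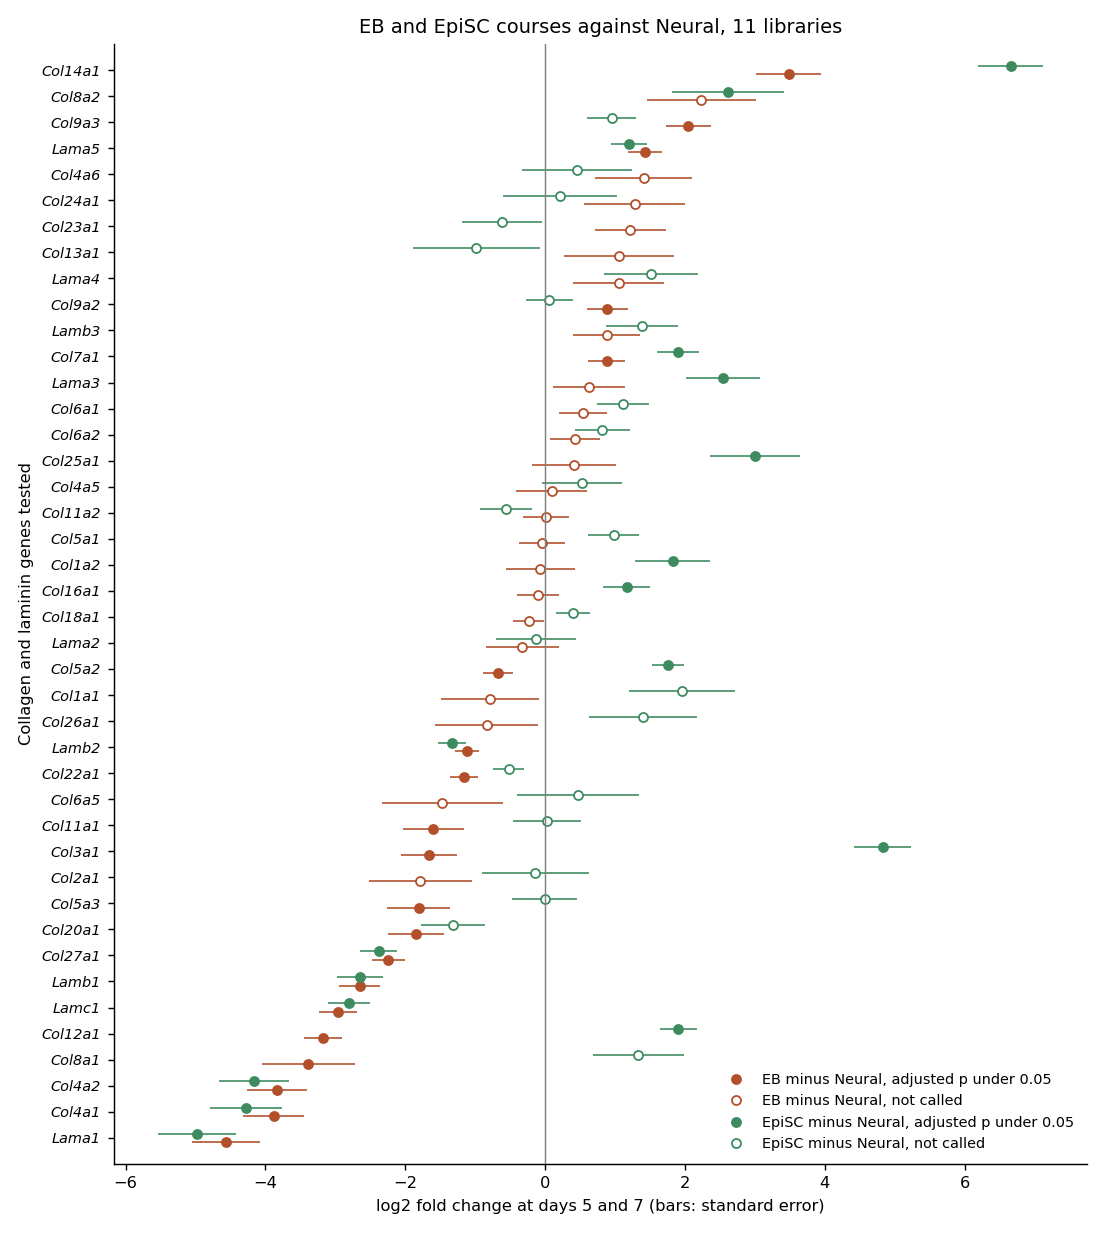
Log2 fold change of 42 of the 43 members tested on days 5 and 7, EB minus Neural and EpiSC minus Neural, with bars for the standard error, filled points for an adjusted p under 0.05 and genes ordered by the EB value. Lama1, Col4a1, Col4a2, Lamc1 and Lamb1 lie at -2.65 or below in both comparisons, and Col3a1 and Col12a1 lie below 0 for EB (-1.67 and -3.18) and above 0 for EpiSC (4.83 and 1.91).

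Most other basement membrane components tested were also lower outside Neural. Of the 7 tested of a list of 8 (Nid1, Nid2, Hspg2, Agrn, Sparc, Fn1, Ntn4 and Egfl6), 5 were lower in EB than in Neural and 5 lower in EpiSC than in Neural, with medians of -1.04 and -1.01. Of 22 genes for collagen modification and processing (prolyl and lysyl hydroxylases, procollagen proteinases and lysyl oxidases), 13 were lower and 1 higher in EB, and 10 lower and 4 higher in EpiSC. Receptors for collagen and laminin were mixed, with 3 of 11 lower and 2 higher in EB, and 3 of 11 higher in EpiSC.

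Markers of other cell types also differed between the courses on days 5 and 7. Of the 18 extraembryonic endoderm markers, 11 were lower and 1 (Afp) was higher in EB than in Neural, and 13 were lower in EpiSC than in Neural. Their sums in Neural (2272 to 4705 CPM) did not overlap with those in EpiSC (982 to 1436 CPM). With medium and day matched, the sum was higher in Neural than in EB in 4 of 4 pairs, at 2272 against 842 CPM and 3720 against 742 CPM on days 5 and 7 from 2iL, and at 4081 against 2314 CPM and 4705 against 2651 CPM from SL. None of the 18 was at 0 in a library of these days. Neural markers were lower in EB than in Neural for 5 of 8, and in EpiSC for 1 of 8. The part of these cells in the levels of the basement membrane chains was not tested.

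Several fibrillar collagens were highest in the EpiSC course. Col3a1 (ENSMUSG00000026043, chromosome 1, 45311538 to 45349706), a collagen of soft connective tissue, was at 0.266, 0.198, 0.129, 0.120, 0.189, 0.0507 and 606 CPM in the EpiSC course from 2iL and at 56.8 and 182 CPM on days 5 and 7 from SL. In EB, Col3a1 was at 4.77 and 5.11 CPM on day 7, and in Neural at 18.9 and 5.74 CPM. EB was lower than EpiSC by a log2 fold change of -6.49 (SE 0.43, adjusted p = 0.0007, edgeR), and EpiSC was higher than Neural by 4.83 (SE 0.41, adjusted p = 0.0011). The late EpiSC libraries did not overlap with the other 8.

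Col12a1 and Col14a1, FACIT collagens that coat fibrils, differed in the order of the courses. Col12a1 reached 125 CPM from 2iL and 64.5 CPM from SL on day 7 of EpiSC, against 32.4 and 11.9 CPM in Neural and 3.33 and 3.12 CPM in EB. It was lower in EB than in EpiSC by -5.08 (SE 0.29, adjusted p = 0.0005, edgeR) and than in Neural by -3.18 (SE 0.27, adjusted p = 0.0006). Col14a1 reached 19.5 and 13.5 CPM in EpiSC, 2.13 and 0.694 CPM in EB and 0.115 and 0.147 CPM in Neural. It was higher in EpiSC than in Neural by 6.66 (SE 0.46, adjusted p = 0.00058) and higher in EB than in Neural by 3.48 (SE 0.46, adjusted p = 0.0016). The late Neural values of Col14a1 (0.0573 to 0.147 CPM) are all below 3 reads, so the size of these differences is not well measured.

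The 2 chains of type I collagen, the main collagen of bone and skin, differed in when they were highest, and no test was made within a course. Col1a1 had its highest value on day 7 in all 6 time courses. Col1a2 did so in EB and EpiSC, whereas in Neural it was at 12.3, 6.08 and 7.50 CPM on days 3, 5 and 7 from 2iL and at 9.47, 10.98 and 9.43 CPM from SL. Col1a1 on day 7 was at 60.2, 104 and 36.1 CPM in EB, EpiSC and Neural from 2iL and at 6.45, 89.1 and 10.1 CPM from SL, and Col1a2 at 19.8 and 44.0 CPM in EB and EpiSC from 2iL and at 23.7 and 77.9 CPM from SL. The 2 chains did not keep a fixed proportion: in the 30 libraries with at least 10 reads of each, the ratio of Col1a1 to Col1a2 per kilobase ran from 0.355 on day 3 of EpiSC to 9.12 on day 7 of Neural, both from 2iL. EB and EpiSC did not differ in Col1a1 (-2.75, SE 0.75, adjusted p = 0.065, edgeR) or Col1a2 (-1.89, SE 0.50, adjusted p = 0.059) past the threshold, although DESeq2 called both (adjusted p = 0.0077 and 0.0024). On day 7 alone Col1a2 was higher in EB than in Neural by 1.27 (adjusted p = 0.037), against -0.07 (SE 0.50) over both days.

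The collagen V chains, which start fibrils, did not move together. Col5a1 was at 129, 116 and 63.0 CPM on day 7 in EB, EpiSC and Neural from 2iL and at 67.0, 146 and 49.9 CPM from SL, and no pair of courses was called. Col5a2 reached 37.7 and 22.4 CPM in EpiSC against 8.23 and 5.11 CPM in EB and 9.47 and 7.59 CPM in Neural, and EB was lower than EpiSC by -2.42 (SE 0.23, adjusted p = 0.0018, edgeR). Col2a1 was at 26.8, 179.7 and 68.2 CPM from 2iL and at 117, 152 and 59.9 CPM from SL. Col27a1, another cartilage collagen, was highest in Neural, at 35.5 and 33.2 CPM on day 7 against 5.67 to 11.3 CPM in the others (EB minus Neural -2.24, SE 0.24, adjusted p = 0.0008, and EpiSC minus Neural -2.38, SE 0.27, adjusted p = 0.0018, edgeR).

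**Figure D4:**
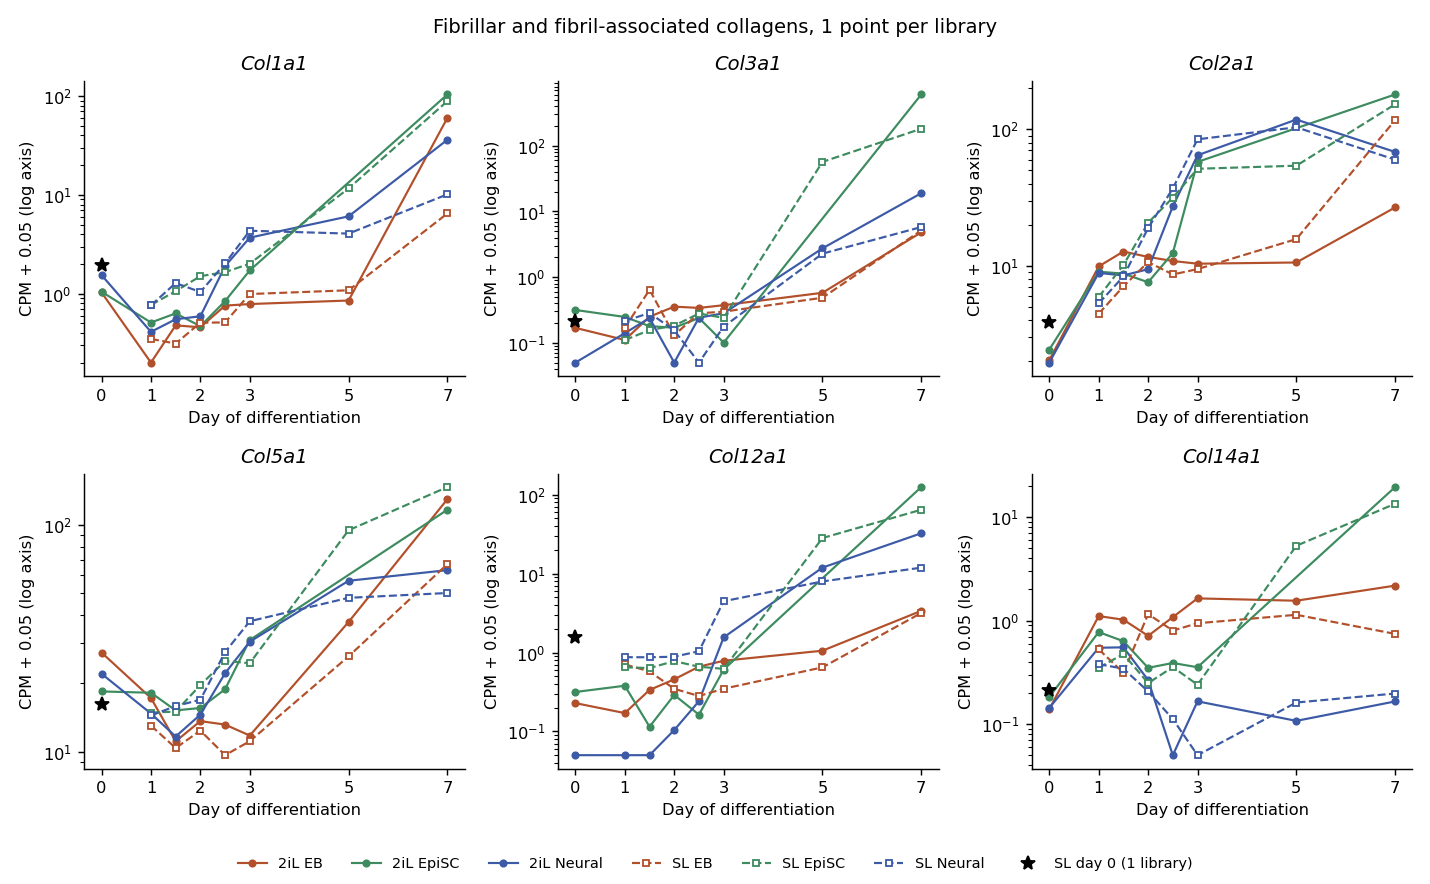
CPM plus 0.05, on a log axis, of 4 fibrillar collagens (Col1a1, Col3a1, Col2a1 and Col5a1) and 2 FACIT collagens (Col12a1 and Col14a1) against day, with 1 point per library and symbols as in the plot of collagen IV and laminin levels. Col3a1, Col12a1 and Col14a1 are highest on day 7 of EpiSC from both media (606 and 182, 125 and 64.5, and 19.5 and 13.5 CPM), whereas Col5a1 ends between 49.9 and 146 CPM in all courses.

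Mesenchyme markers were also high in EpiSC. The 11 genes of the list, among them Acta2, Tagln, Twist1 and Prrx1, summed to between 271 and 466 CPM in the 3 late EpiSC libraries, to between 48.9 and 195 CPM in EB and to between 113 and 416 CPM in Neural. Acta2 and Tagln were the 2 called lower in EB than in EpiSC, and 4 of 11 (Dcn, Postn, Prrx1 and Tagln) were higher in EpiSC than in Neural. Lum was at 0 in at least 1 late library of EB and of Neural. The part of such cells in the fibrillar collagens was not tested.

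Of the 49 members, 28 had their highest median over the late libraries in EpiSC, 12 in Neural and 9 in EB. No share over all genes was set beside these counts. They also depend on the limit of 1 CPM, which Col19a1 passed only on day 7 of EpiSC from 2iL (1.58 CPM). EpiSC has 3 late libraries, 2 of them of day 7, against 4 with 2 of day 7 in the other courses, and on day 7 alone the counts were 23, 13 and 13. Among the transmembrane collagens, Col25a1, known from nerve and muscle contacts, reached 23.8 and 4.52 CPM on day 7 of EpiSC, and EB was lower than EpiSC by -2.59 (SE 0.57, adjusted p = 0.037, edgeR), a call that was lost on day 7 alone (-2.47, adjusted p = 0.079). Col23a1 was highest in EB on day 7, at 18.6 and 12.5 CPM, and Col13a1 reached 8.11 and 9.60 CPM on day 1 of EpiSC. Of the remaining collagens, Col26a1 reached 33.7 CPM on day 7 of EpiSC from 2iL, and Col7a1, the anchoring fibril collagen of skin, 21.3 CPM on day 5 of EpiSC from SL. Col8a1, a network collagen of vessel walls and cornea, was at 8.86 and 8.20 CPM on day 7 of EpiSC against 0.426 and 0.496 CPM in EB (EB minus EpiSC -4.72, SE 0.69, adjusted p = 0.0094).

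The peak day varied with course, but no share over all genes was set beside the counts that follow. The limit of 1 CPM also shapes them, since a gene such as Lama2 passed it on day 7 alone. In the EB course from 2iL, 36 of the 49 members peaked on day 5 or 7, 8 between days 1 and 3 and 5 at day 0, and in the Neural course from 2iL the counts were 27, 20 and 2. Over all 6 time courses, 15 members peaked on day 5 or 7 in each, among them Col4a1, Col4a2, Col4a5, Col4a6, Lamb1, Col1a1 and Col3a1, and 3 peaked between days 1 and 3 in each. The 3 were Col18a1, Col6a5 and Col6a6.

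Col18a1 was the most abundant of these early members. From 2iL it was at 143, 606, 705, 763, 659, 566, 207 and 281 CPM in EB and at 174, 334, 336, 464, 689, 869, 379 and 221 CPM in Neural, so that it peaked on day 2 in the former and on day 3 in the latter. In EpiSC from 2iL, Col18a1 was at 150.4, 485, 539.5, 599.7, 627, 849 and 359.6 CPM. From SL it started at 249.7 CPM and reached at most 557 CPM.

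Col6a5, a chain that can take the place of Col6a3 in collagen VI, pulsed on days 1 to 2.5. In the EpiSC course from 2iL it was at 0.0665, 7.58, 25.2, 35.6, 14.1, 5.68 and 0.528 CPM, and in Neural from 2iL at 0.140, 8.35, 23, 33.9, 12.9, 1.97, 0.0573 and 0.404 CPM. In EB, Col6a5 peaked on day 1 at 6.70 CPM from 2iL and 4.6 CPM from SL. The common chains Col6a1 and Col6a2 did not share this pulse: Col6a1 reached 12.0, 11.6 and 3.93 CPM on day 7 in EB, EpiSC and Neural from 2iL, and Col6a2 stayed at or below 8.14 CPM. Col6a3 was highest between days 1 and 2 in EB and Neural from both media, at low levels (0.406 to 1.15 CPM). It passed 1.15 CPM only on day 7 of EpiSC from 2iL, at 9.18 CPM.

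**Figure D5:**
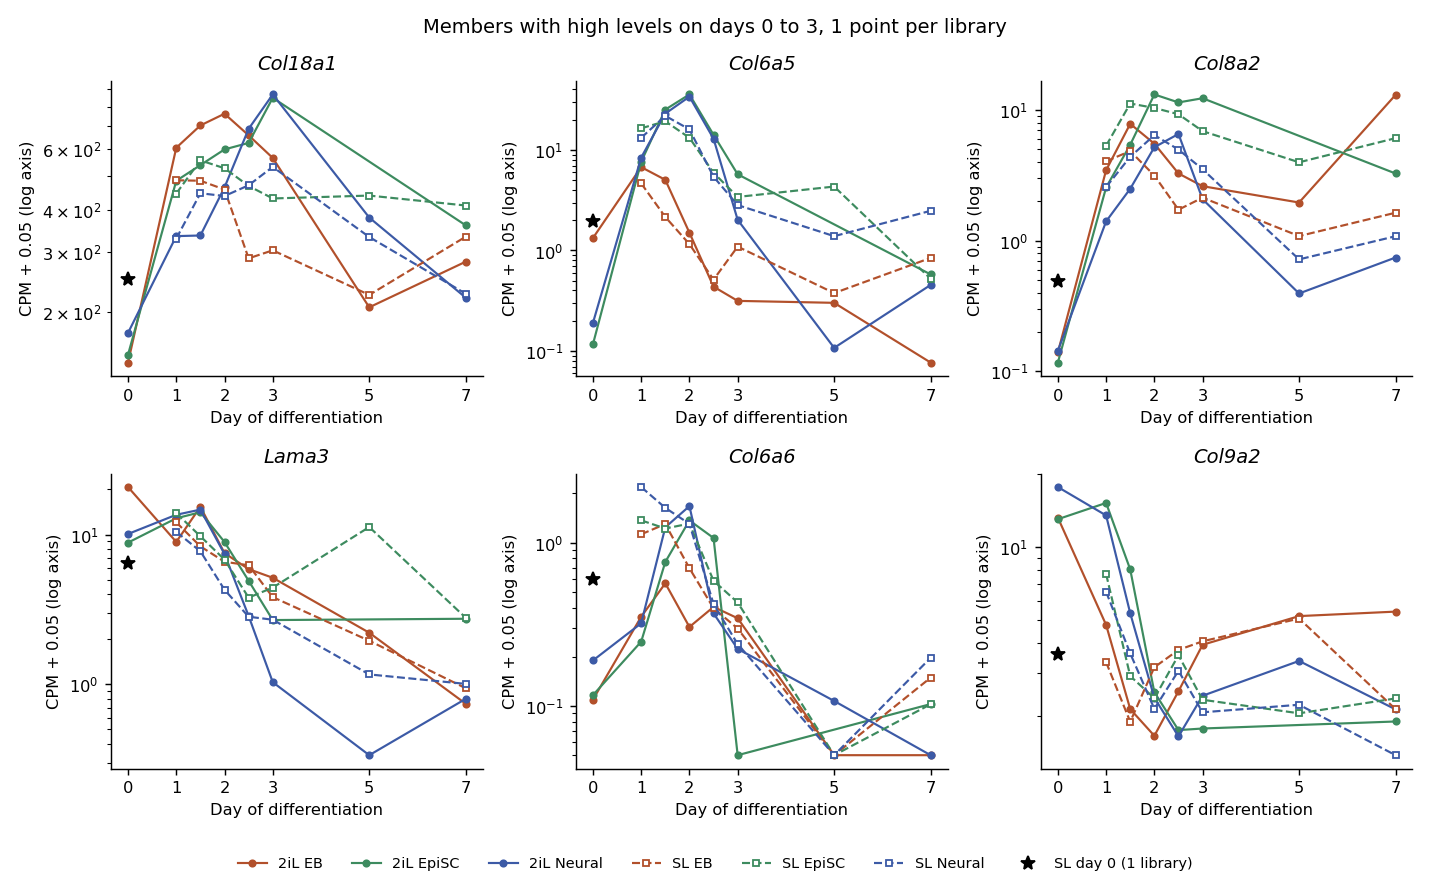
CPM plus 0.05, on a log axis, of Col18a1, Col6a5, Col8a2, Lama3, Col6a6 and Col9a2 against day, with 1 point per library and symbols as in the plot of collagen IV and laminin levels. Col6a5 peaks on day 2 in EpiSC and Neural from 2iL (35.6 and 33.9 CPM), and Lama3 ends between 0.692 and 2.73 CPM on day 7.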

How the data were processed

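The authors sequenced total RNA after ribosomal depletion with strand-specific libraries, trimmed adaptors with TrimGalore, aligned to GRCm38 with TopHat2 and counted reads per Ensembl gene by strand with featureCounts, and they deposited raw read counts, 1 table per library. CPM was computed here as reads of a gene over the library total, with 1000000 as the scale. Depth was 13093226 to 39804240 reads, so that 3 reads were 0.0754 to 0.229 CPM. Levels per kilobase used exon lengths of GENCODE gene models on GRCm38.

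Counts were tested with edgeR 4.0.16 in R 4.3.3 (filterByExpr, TMM factors, glmQLFit and glmQLFTest) over all genes that passed the filter, with Benjamini-Hochberg adjustment and a threshold of 0.05. Groups came from the labels for medium, course and day. Comparisons over days 0, 1, 5 and 7 within a medium had course as a term, comparisons of media over days 1 to 3 had course and day, and comparisons of courses on days 5 and 7 had medium and day. The labels number no replicates. Steps were tested on simulated data. Most genes named with a test are the largest called changes in each direction of a comparison, with the partner chains of the common trimers. Outside this rule, Col5a3 from SL was named after its value was seen, and Col4a5, Col4a6 and Col27a1 were named for EB against Neural. Levels are given for partner chains and the most abundant members of each class. Collagens and laminins and all gene lists were chosen with earlier results of these data known. Alternatives were other size factors, DESeq2 1.42.0, no filter on low counts, a term less in the model, fewer or summed days, other CPM limits and leaving out each course, medium or library. The ranking of courses on day 7 alone and low-count ratios without each late library were added after the data were seen. Sequences were read from RefSeq promoters of GRCm38.p6. Figures were drawn with matplotlib 3.10.9 in Python 3.11.15. Some values were kept in the fits and counts but are not reported here.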

Additional observations from a re-analysis of the deposited data

Results flagged for a closer look

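Col6a2 was a member whose change from day 1 to days 5 and 7 differed between the media by the interaction term (edgeR's quasi-likelihood test, Benjamini-Hochberg adjustment over all genes). For Col6a2 the change from 2iL exceeded that from SL by a log2 value of 5.47 (SE 0.90, adjusted p = 0.00042). The level of Col6a2 on day 1 from 2iL rested on 1 read over 3 libraries (0.0302 CPM in EB and 0 in the other 2), against 1.08, 0.66 and 1.15 CPM from SL in EB, EpiSC and Neural, so the size of this difference depends on that read.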

How the results depend on the processing

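From 2iL, 7 members were called between days 0 and 1, against 4 with no replicate block (course left out), 17 with days 0 and 1 alone in the fit, and 2 to 7 with a course left out (2 without EpiSC). Over days 1 to 3, 18 members differed between media, against 9 with days summed per time course. On days 5 and 7, 20 members differed between EB and Neural (0 without SL, 6 without 2iL), 6 between EB and EpiSC (17 by DESeq2, 0 without either medium), and 18 between EpiSC and Neural (0 without SL, 11 without 2iL). With a medium left out, each course keeps 1 or 2 libraries, and the lone EpiSC library without SL is assumed to vary like the others; 13 to 21 members then had an unadjusted p under 0.05 where none was called. For the change between media, 2 members were called, and 1 to 2 with a course left out. Without Neural, the changes of Lama1 and Lamc1 from day 0 in 2iL reversed to -1.61 and -1.33, and without EB they were 2.62 and 0.97. Col1a2 between EB and Neural was 1.27 on day 7 alone. The ratio of summed CPM of Neural over EB fell to 0.682 from 2iL and 0.766 from SL without the 5 abundant genes. Limits of 0.5 and 2 CPM gave 51 and 47 reported genes in place of 49. Low depth limits genes at 3 reads or fewer in a library, and 3 reads are 0.229 CPM in the shallowest library and 0.0754 CPM in the deepest.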
